A study of Homo sapiens with 10 samples.

Results

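The 10 genes described here code for ion channels that open on mechanical force or on acid, and for 1 membrane protein that tunes them: PIEZO1, PIEZO2, STOML3, TMEM63A, TMEM63B, TMEM63C, ASIC1, ASIC2, ASIC3 and ASIC4. They were chosen by name and are 10 of the 30357 named genes in the tables. All 10 were present in the tables, and 9 passed the filter on low counts. STOML3 did not.

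The cultures came from RUES2, a widely used line of human embryonic stem cells, carrying a tdTomato reporter at AVIL (a sensory neuron gene for the actin-binding protein advillin), and followed 3 protocols meant to yield nociceptors (pain neurons), low-threshold mechanoreceptors (touch neurons) or proprioceptors (muscle-stretch neurons). RNA was taken at day 60 in vitro and sequenced in bulk, with 4 libraries of the nociceptor protocol and 3 of each of the others. All libraries share the line and the reporter, and no undifferentiated or unedited culture was compared here. The sample titles call the replicates biological. The sources used here do not say whether reporter-positive cells were sorted or whether replicates were separate differentiations. The p-values therefore measure only the spread between these libraries, which may not be that between separate differentiations.

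PIEZO1 and PIEZO2 are very large proteins that assemble as trimers into a pore opened directly by membrane stretch or indentation. PIEZO2 is the main channel of touch and of the sense of limb position, carried by sensory neurons and by Merkel cells, while PIEZO1 is best known from vessels, blood cells and connective tissue. The TMEM63 proteins are relatives of the plant OSCA channels and respond to stretch and osmotic change. The ASIC channels are acid-opened sodium channels of the degenerin family whose part in touch is modulatory, and STOML3 is a stomatin-like protein that lowers the force needed to open PIEZO channels.

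PIEZO2 had the highest level of the 10 genes in every library, and STOML3 the lowest. PIEZO2 took between 24.1% and 80.8% of the summed level of the 10 genes (median 54.7%). Levels are given as TPM, a length-corrected abundance scaled alike in each library, so that genes can be compared with each other. ASIC1, ASIC2, TMEM63B and TMEM63C formed a middle tier with means over all libraries of 20.5, 15.5, 14.2 and 7.47 TPM. PIEZO1 and TMEM63A averaged 7.13 and 3.05 TPM but ranged 27.1-fold and 70.4-fold between libraries. ASIC3 and ASIC4 stayed near 1 TPM, with means of 1.06 and 0.675. The SDs over the 10 libraries were 12.2, 9.03, 7.24 and 4.53 TPM for ASIC1, ASIC2, TMEM63B and TMEM63C. They measure the spread between libraries and do not compare genes within a library. TMEM63B lay above TMEM63C in every library, whereas ASIC1 and ASIC2, and ASIC2 and TMEM63B, changed places between libraries.

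**Figure D1:**
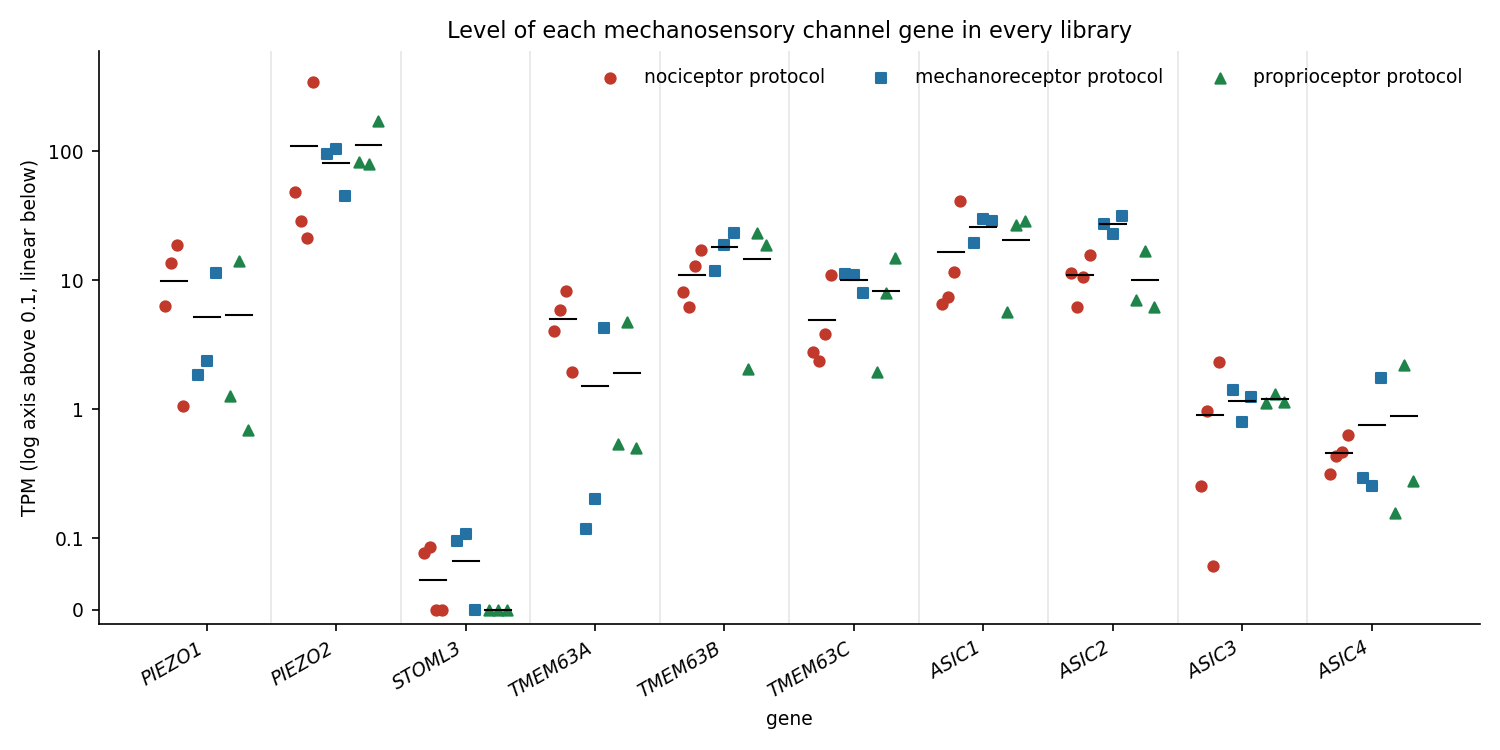
TPM of each of the 10 genes (x axis) in every library on an axis that is logarithmic above 0.1 TPM and linear below it. Circles, squares and triangles are libraries of the nociceptor, mechanoreceptor and proprioceptor protocols, and short bars are protocol means. PIEZO2 lies above 20 TPM in every library, STOML3 lies at or near 0, and 1 nociceptor library stands far above the other 3 for PIEZO2, TMEM63C and ASIC1.

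The libraries differed in make-up within each protocol. Named genes received between 27891186 and 44541262 counts. The 12 fibroblast and mesenchyme markers averaged between 4.20 and 5.10 log2 CPM (counts scaled to library size) in 5 libraries (nociceptor 1, 2 and 3, mechanoreceptor 3 and proprioceptor 2) and between 0.12 and 2.09 in the other 5. Markers of Schwann and satellite glia ran between 5.86 and 7.21 in the first 5 libraries and between -1.03 and 4.25 in the others. Pan-neuronal markers (STMN2, NEFL and 10 others) were divided the opposite way, between 8.16 and 8.82 log2 CPM in the first 5 and between 9.01 and 9.67 in the others, and so were the 10 sensory neuron markers, between 4.43 and 5.20 against 5.29 to 5.74. Sensory neuron genes were present throughout: PRPH lay between 366 and 1260 TPM and ISL1 between 104 and 417. SCN10A, a sodium channel that defines mature nociceptors, reached at most 0.134 TPM in any library, and PVALB, a calcium buffer of proprioceptors, lay between 1.70 and 14.6 TPM. Nociceptor 4 stood apart from the other 3 libraries of its protocol, and the means of PIEZO2, TMEM63C and ASIC1 are given with and without it. Proprioceptor 1 had the fewest genes at 1 TPM or more (12066) and the lowest level of TMEM63B, TMEM63C and ASIC1.

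PIEZO2, on chromosome 18 at 10670247 to 11149569 on the minus strand of GRCh38.p14, was measured at 48.6, 28.6, 21.1 and 341 TPM in nociceptor 1 to 4. It was measured at 94.4, 103 and 45.3 TPM in mechanoreceptor 1 to 3 and at 82.8, 79.4 and 172 TPM in proprioceptor 1 to 3. Nociceptor 4 was the highest of all libraries and the other 3 nociceptor libraries included the lowest, so the nociceptor range enclosed both other protocols. The nociceptor mean was 110 ± 155 TPM (SD, n = 4), and without nociceptor 4 it was 32.8 ± 14.2 TPM (SD, n = 3). The mechanoreceptor mean was 80.9 ± 31.2 TPM and the proprioceptor mean 111 ± 52.3 TPM (SD, n = 3 each). By edgeR's quasi-likelihood test over all libraries, PIEZO2 differed by 0.12 ± 0.81 (log2, SE) between the mechanoreceptor and nociceptor protocols, with a Benjamini-Hochberg adjusted p of 0.973. The proprioceptor protocol differed from the nociceptor protocol by 0.51 ± 0.80, with an adjusted p of 0.839 in the same edgeR fit. Without nociceptor 4 these differences became 1.70 and 2.10, with unadjusted p under 0.05 in both, and neither passed adjustment.

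The PIEZO2 signal was deep, between 1947 and 23599 estimated counts a library, but its transcripts could be named only in part. The 15 PIEZO2 transcripts matched by identifier to the GENCODE annotation held between 16.2% and 39.3% of the gene's TPM, and the rest lay in entries not matched to a name here. Of the named ones, 5 reached 5% of the PIEZO2 TPM in some library. PIEZO2-208, a short non-coding entry at chromosome 18 10857065 to 10890692, was measured at 2.75, 1.86, 3.91 and 49.3 TPM in nociceptor 1 to 4. It lay at 2.42, 5.49 and 2.36 TPM for mechanoreceptor 1 to 3 and at 12.0, 3.97 and 17.8 TPM for proprioceptor 1 to 3. This entry was highest in nociceptor 4 and proprioceptor 3, the same 2 libraries that were highest for the whole gene. Because the entry is short, few counts give these levels: 382 of 23599 PIEZO2 counts in nociceptor 4, and 18 in nociceptor 2 and mechanoreceptor 3.

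The other PIEZO2 entries were less even. PIEZO2-206, a protein-coding fragment at 10797497 to 10855436, was measured at 6.93, 1.58 and 9.31 TPM in nociceptor 1, 2 and 4, at 0.599 TPM in mechanoreceptor 1 and at 4.24 TPM in proprioceptor 1, and was listed at 0 in the other 5 libraries. These values rest on 74, 15, 74, 5 and 42 estimated counts in that order. PIEZO2-209, at 10737663 to 10748500, ranged from 0.403 TPM in nociceptor 3 to 12.1 TPM in mechanoreceptor 1. PIEZO2-212, annotated as a target of nonsense-mediated decay, ranged from 0.0913 TPM in nociceptor 2 to 5.48 TPM in mechanoreceptor 1. PIEZO2-204, a non-coding entry at the 3′ end of the gene, received 0 estimated counts in 3 libraries and reached 3.30 TPM in nociceptor 1. Of the 7 PIEZO2 transcripts that passed the filter, 0 passed edgeR's adjusted threshold of 0.05 in any of the 3 comparisons, and 0 had an unadjusted p under 0.05. Over all 76818 transcripts tested, 0.00% passed the adjusted threshold in each comparison, and 4.91%, 4.08% and 2.41% had an unadjusted p under 0.05 for mechanoreceptor against nociceptor, proprioceptor against nociceptor and proprioceptor against mechanoreceptor. DESeq2 called 528, 391 and 276 transcripts in these comparisons, with 0 of PIEZO2. Reads shared by overlapping transcripts were divided by estimation, so the split between these entries carries an error that the tables do not show.

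PIEZO1, on chromosome 16 at 88715338 to 88785220 on the minus strand, ran the other way across libraries. It was measured at 6.27, 13.5, 18.8 and 1.05 TPM in nociceptor 1 to 4, at 1.82, 2.37 and 11.4 TPM for mechanoreceptor 1 to 3 and at 1.26, 14.1 and 0.694 TPM for proprioceptor 1 to 3. Each protocol therefore held both high and low libraries. TMEM63A, on chromosome 1 at 225840556 to 225882380 on the minus strand, followed the same division, at 4.07, 5.85, 8.29 and 1.95 TPM for nociceptor 1 to 4, 0.118, 0.202 and 4.25 TPM for mechanoreceptor 1 to 3 and 0.533, 4.71 and 0.497 TPM for proprioceptor 1 to 3. The 5 libraries highest for PIEZO1 were also the 5 highest for TMEM63A. The lowest TMEM63A values rest on few counts, 12 and 11 in mechanoreceptor 1 and 2 and 12 and 31 in proprioceptor 1 and 3. PIEZO1 received 36 and 41 counts in proprioceptor 1 and 3.

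These were the same 5 libraries that were highest in mesenchyme markers. PIEZO1 lay between 6.27 and 18.8 TPM in them and between 0.694 and 2.37 TPM in the others, and TMEM63A between 4.07 and 8.29 TPM against 0.118 to 1.95 TPM. By TPM, PIEZO2 was lower in each of those 5 libraries (21.1 to 79.4 TPM) than in each of the other 5 (82.8 to 341 TPM). By CPM this division did not hold, as PIEZO2 lay at 266 CPM in mesenchyme-rich proprioceptor 2 and at 262 CPM in proprioceptor 1. Of all 16130 genes tested, 11.1% were higher by TPM in each of the mesenchyme-rich libraries than in each of the others. A further 2.85% were lower by TPM in each, beside 2 and 1 of the 9 members tested. The libraries were ordered by their markers, not by protocol, and no test was made of this order. In bulk RNA, fewer cells of a type and less RNA per cell cannot be told apart, and the part of mesenchyme, glia and neuronal content in these levels was not tested. With the mesenchyme level as a covariate in the edgeR fit, the mechanoreceptor against nociceptor difference of PIEZO1 moved from -1.19 to 1.43 and that of PIEZO2 from 0.12 to -0.72 (log2). In that edgeR fit PIEZO1 and ASIC2 had an unadjusted p under 0.05 for this pair, as did 590 of 16130 genes. By the adjusted p, 0 members were called.

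**Figure D2:**
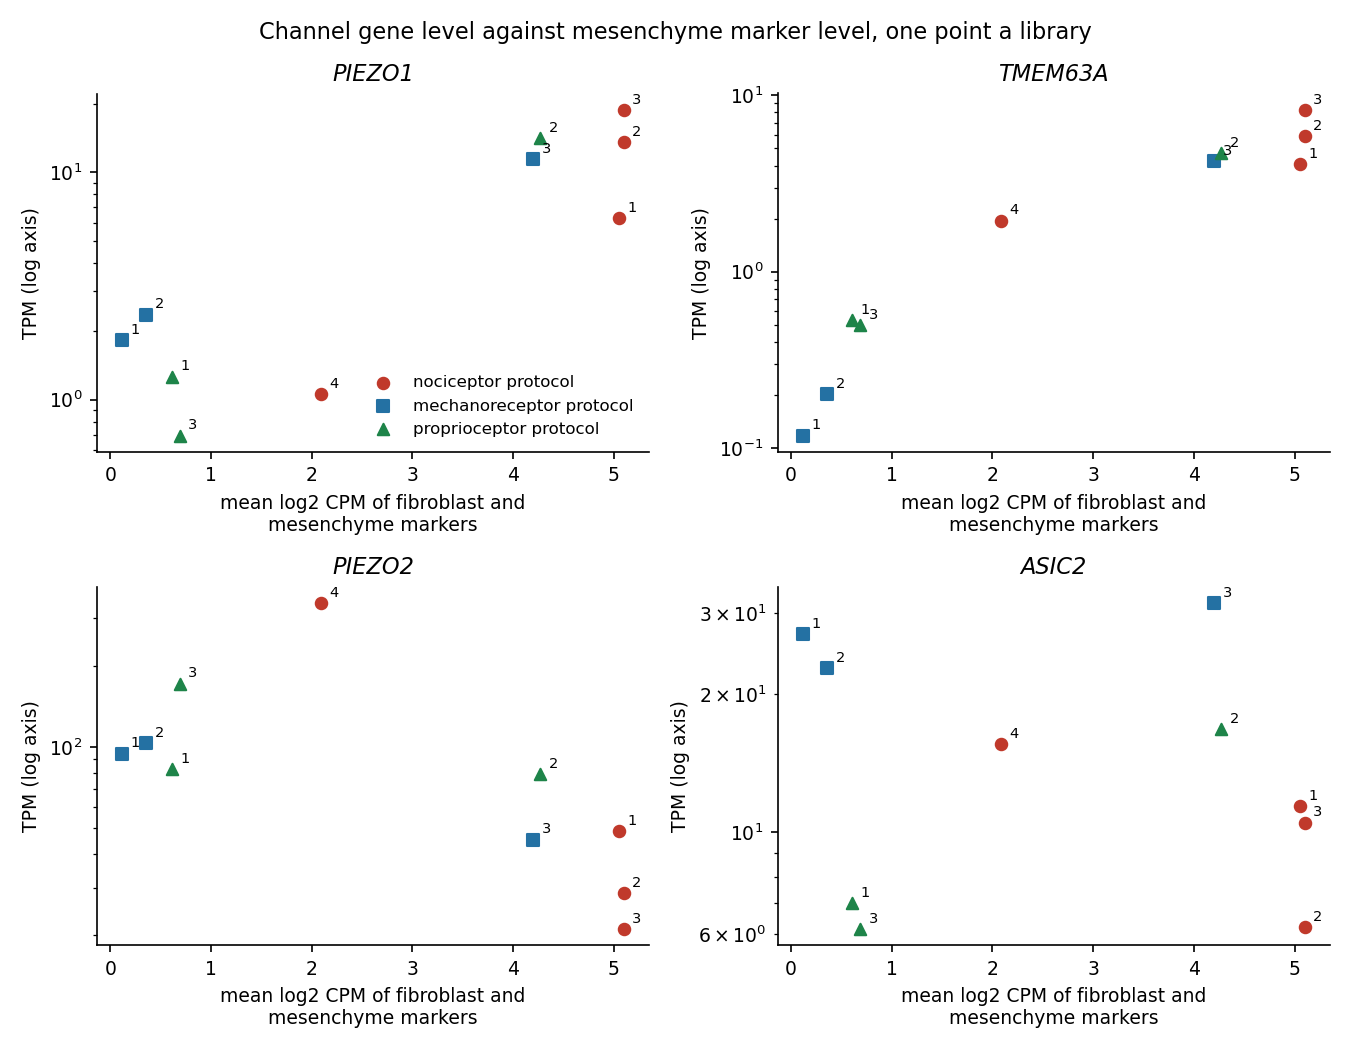
TPM (log axes) of PIEZO1, TMEM63A, PIEZO2 and ASIC2 against the mean log2 CPM of 12 fibroblast and mesenchyme markers (x axis), 1 point a library, with the replicate number beside it and the protocol as colour and shape. The 5 libraries on the right are the highest for PIEZO1 and TMEM63A and the lowest for PIEZO2, and the 3 mechanoreceptor libraries are the highest for ASIC2 on both sides.

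Since PIEZO1 and TMEM63A were high in the same libraries, the 250 bases before the RefSeq start of each are shown from the table of GRCh38.p14, both 5′ to 3′ on the minus strand, with matches to 5 searched motifs in capitals. The PIEZO2 window is given beside them as the gene that ran opposite to both.

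PIEZO1, chr16:88785221-88785470: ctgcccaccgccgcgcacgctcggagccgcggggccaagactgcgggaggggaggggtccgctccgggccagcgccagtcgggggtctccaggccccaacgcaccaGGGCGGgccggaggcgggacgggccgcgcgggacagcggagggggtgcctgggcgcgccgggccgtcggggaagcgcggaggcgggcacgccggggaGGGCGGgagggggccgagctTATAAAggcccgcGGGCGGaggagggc
TMEM63A, chr1:225882381-225882630: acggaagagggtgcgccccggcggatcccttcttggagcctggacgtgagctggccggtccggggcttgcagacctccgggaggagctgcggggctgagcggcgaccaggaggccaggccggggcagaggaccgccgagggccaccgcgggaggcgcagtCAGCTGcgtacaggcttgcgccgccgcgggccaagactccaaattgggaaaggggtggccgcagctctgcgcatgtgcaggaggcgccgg
PIEZO2, chr18:11149570-11149819: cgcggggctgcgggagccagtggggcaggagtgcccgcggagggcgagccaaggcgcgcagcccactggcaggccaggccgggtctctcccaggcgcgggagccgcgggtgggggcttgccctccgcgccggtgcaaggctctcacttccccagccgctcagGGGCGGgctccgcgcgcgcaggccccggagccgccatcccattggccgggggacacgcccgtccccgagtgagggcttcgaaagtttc

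The motifs searched on both strands were the GC box GGGCGG, the TATA box TATAAA, the E-box CAGCTG, the cyclic AMP response core TGACGT and the TEAD motif GGAATG. The PIEZO1 window held 3 GC boxes, beginning 144, 47 and 14 bases before the start, and a TATA box that began 27 bases before it. The TMEM63A window held 1 E-box, 90 bases before the start, and no other of the 5 motifs. The PIEZO2 window held 1 GC box, 88 bases before the start. Over 35116 windows of 250 bases in the same table, 42.64% held the GC box, 10.72% the TATA box and 13.99% the E-box. PIEZO1 and TMEM63A thus shared none of the searched motifs in these windows, while all 3 windows were rich in G and C, at 81.2%, 72.8% and 76.8% against a median of 58% over all windows. A match is a run of letters and not a site shown to be used. Bases just after the RefSeq start were found in a GENCODE transcript for PIEZO1 but not for TMEM63A or PIEZO2. The windows of TMEM63A and PIEZO2 may therefore not lie directly before the start of a transcript annotated in GENCODE.

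The protein-coding PIEZO1 transcript that spans the gene, PIEZO1-201, which was picked for description after its values were seen, was measured at 2.84, 3.86, 7.43 and 0.444 TPM for nociceptor 1 to 4. It lay at 0.271, 0.323 and 4.33 TPM for mechanoreceptor 1 to 3 and at 0.0566, 5.19 and 0.141 TPM for proprioceptor 1 to 3. It held between 28.5% and 45.3% of the PIEZO1 TPM in the 5 mesenchyme-rich libraries and 42.1% in nociceptor 4, and between 4.5% and 20.3% in the other 4. Those 4 were mechanoreceptor 1 and 2 and proprioceptor 1 and 3, where by estimated counts it held 53 of 99, 70 of 139, 12 of 36 and 29 of 41 PIEZO1 counts, in each a larger part than by TPM. PIEZO1 exons overlap those of CTU2, a tRNA-modifying enzyme gene, on the other strand, and TMEM63A exons overlap those of EPHX1, so without strand their reads cannot be fully told apart.

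Within each library, the ratio of PIEZO2 to PIEZO1 TPM does not depend on how libraries are scaled. With 0.1 added to both, it was 7.65, 2.10, 1.12 and 296 in nociceptor 1 to 4, 49.1, 41.8 and 3.95 for mechanoreceptor 1 to 3 and 60.9, 5.60 and 216 for proprioceptor 1 to 3. PIEZO2 exceeded PIEZO1 in every library, and every protocol held a library with a ratio under 10. The mean log2 ratio was 3.09 ± 3.60 (SD, n = 4) in the nociceptor protocol, 4.33 ± 2.04 (SD, n = 3) in the mechanoreceptor protocol and 5.39 ± 2.68 (SD, n = 3) in the proprioceptor protocol. The mechanoreceptor mean lay 1.23 above the nociceptor mean (two-sided exact permutation p = 0.686, adjusted over the 3 pairs 0.686). The proprioceptor mean lay 2.30 above the nociceptor mean (exact permutation p = 0.371, adjusted 0.686) and 1.06 above the mechanoreceptor mean (exact permutation p = 0.5, adjusted 0.686). The smallest p these designs allow is 0.0286 for the first 2 pairs and 0.1 for the third, so the third could not have passed 0.05. Without nociceptor 4, the first 2 differences became 2.94 and 4.00. With 3 libraries in each protocol, neither could then have had a p under 0.1 by the exact permutation test.

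**Figure D3:**
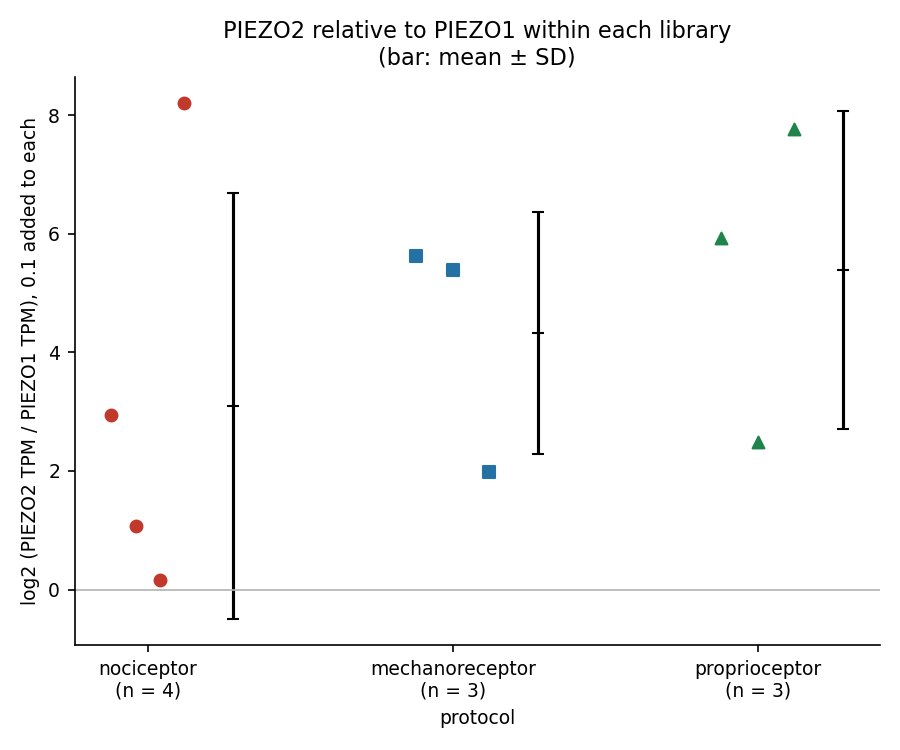
log2 ratio of PIEZO2 to PIEZO1 TPM (y axis, 0.1 added to each) in every library of each protocol (x axis), with the protocol mean and SD as a bar beside the points. The ranges of the 3 protocols overlap, from 0.16 to 8.21 in the nociceptor, 1.98 to 5.62 in the mechanoreceptor and 2.49 to 7.76 in the proprioceptor protocol.

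STOML3, on chromosome 13 at 38965925 to 38990831, received 4, 4, 0 and 0 counts in the nociceptor libraries, 4, 5 and 0 for mechanoreceptor 1 to 3 and 0 in each proprioceptor library. Its highest level was 0.107 TPM in mechanoreceptor 2. A count of 0 allows up to 3 counts, so at this depth the PIEZO-tuning partner was at or near the limit in all libraries and no difference between protocols was detectable. Its relatives were abundant: STOML2, a mitochondrial member, lay between 74.6 and 150 TPM and STOML1 between 39.9 and 105 TPM. STOM, the founding member, lay between 11.5 and 19.2 TPM in the 5 mesenchyme-rich libraries and between 2.46 and 5.35 TPM in the others.

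ASIC2, on chromosome 17 at 33013087 to 34156768 on the minus strand, was the only member of the 10 whose level was higher in every library of 1 protocol than in all other libraries. It was measured at 11.4, 6.21, 10.5 and 15.6 TPM for nociceptor 1 to 4, at 27.0, 22.8 and 31.6 TPM for mechanoreceptor 1 to 3 and at 7.02, 16.8 and 6.15 TPM for proprioceptor 1 to 3. The lowest mechanoreceptor library thus lay above the highest library of the other protocols, and mechanoreceptor 3, which was rich in mesenchyme markers, was the highest of all. Of all genes tested, 1.64% were highest in all 3 mechanoreceptor libraries in this way. The means were 27.1 ± 4.37 TPM (SD, n = 3) for the mechanoreceptor, 10.9 ± 3.83 TPM (SD, n = 4) for the nociceptor and 9.98 ± 5.91 TPM (SD, n = 3) for the proprioceptor protocol. By edgeR, ASIC2 was 1.02 ± 0.37 higher (log2, SE; 95% interval 0.20 to 1.84) in the mechanoreceptor than in the nociceptor protocol, with an unadjusted p of 0.0194 and an adjusted p of 0.598. In the proprioceptor protocol it was -1.19 ± 0.41 relative to the mechanoreceptor protocol (95% interval -2.09 to -0.30), with an unadjusted p of 0.0135 and an adjusted p of 1 by edgeR. Neither passed the adjusted threshold.

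The estimated TPM shares of the ASIC2 transcripts varied between libraries, and no test was made of them. ASIC2-201, the protein-coding entry whose first exon lies at 33291408 to 33292988, held between 49.1% and 86.1% of the ASIC2 TPM. ASIC2-203, annotated as a non-coding processed transcript, held 4.7%, 2.8%, 4.1% and 3.8% of the ASIC2 TPM in nociceptor 1 to 4. It held 21.0%, 24.2% and 21.4% for mechanoreceptor 1 to 3 and 17.9%, 18.1% and 25.2% for proprioceptor 1 to 3. Every nociceptor library lay below every other library, nociceptor 4 and the mesenchyme-rich libraries of the other protocols included. Its estimated counts were 9, 3, 5 and 7 of 1050, 537, 750 and 885 ASIC2 counts for nociceptor 1 to 4. They were 79, 86 and 86 of 1772, 1665 and 1909 for mechanoreceptor 1 to 3. For proprioceptor 1 to 3 they were 20, 38 and 23 of 496, 1031 and 391. In each library this was a much smaller part than by TPM, which corrects for the short length of the entry. The TPM share averaged 3.86 ± 0.827% (SD, n = 4), 22.2 ± 1.74% and 20.4 ± 4.14% (SD, n = 3 each) in the 3 protocols. Of 27080 transcripts that held at least 10% of a gene of at least 1 TPM on average, 0.735% had a lower share in every nociceptor library than in all others. ASIC2-203 passed that average of 10% only through the libraries in which its share was high, so this rate is given as background and supports nothing.

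What sets ASIC2-203 apart is a 79-base exon at chr17:33290676-33290754, the second of its 7, which neither ASIC2-201 nor ASIC2-202 holds. It is shown in capitals within the transcript's own sequence from the GENCODE transcripts of GRCh38, 5′ to 3′ on the minus strand, after the 34 bases of its first exon and before the first 30 bases of the next.

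ASIC2-203, exons 1 to 3 in part: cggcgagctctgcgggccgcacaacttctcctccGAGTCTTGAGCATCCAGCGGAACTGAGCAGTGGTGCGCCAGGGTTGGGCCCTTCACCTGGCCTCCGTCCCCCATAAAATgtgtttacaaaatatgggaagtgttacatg

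The 34 bases before the exon lie within the first exon of ASIC2-201, and the exon that follows is shared with ASIC2-201 and ASIC2-202. The 79 bases also form the 3′ end of the first exon of ASIC2-204, a 559-base entry with 2 exons that starts further upstream, at 33291107. ASIC2-204 held between 5.3% and 22.9% of the ASIC2 TPM, with nociceptor 4 the highest. ASIC2-202, whose first exon lies far upstream at 34155978 to 34157294 and gives the channel another start, was listed at 0 in 3 libraries and held at most 23.1%, in proprioceptor 1. ASIC2-203 shares most of its 750 bases with ASIC2-201, so its counts rest on the few reads that reach the 79 bases and on the estimate that divides the others. No test was made of these shares.

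**Figure D4:**
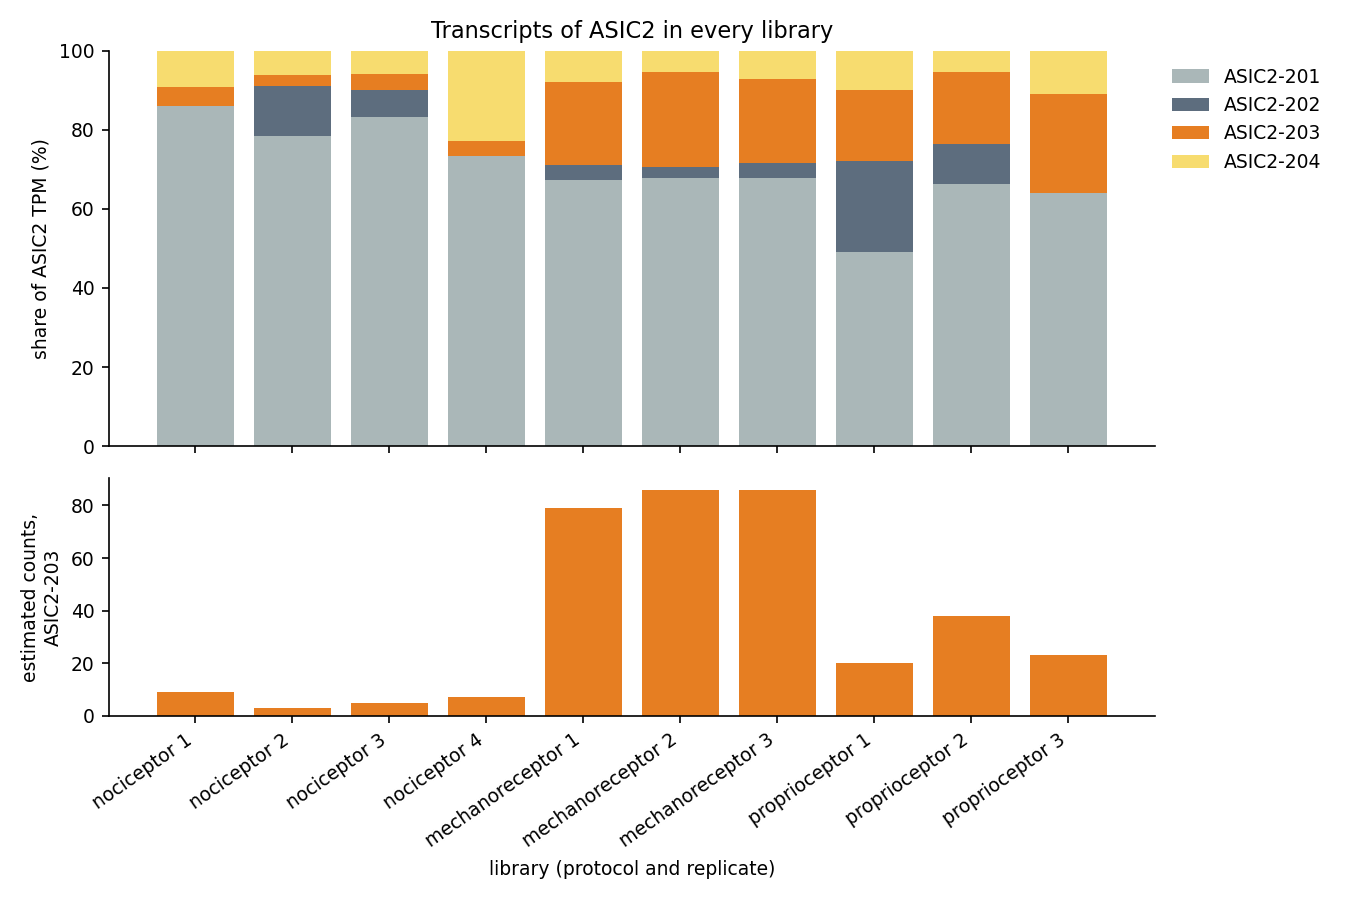
Share of the ASIC2 TPM (%, upper panel) held by 4 named transcripts, stacked, and estimated counts of ASIC2-203 (lower panel) in each of the 10 libraries (x axis). The ASIC2-203 share is 2.8% to 4.7% in the 4 nociceptor libraries and 17.9% to 25.2% in the other 6, and its counts are 3 to 9 against 20 to 86.

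ASIC1, on chromosome 12 at 50057596 to 50083622, codes for the main acid sensor of neurons and was measured at 6.57, 7.41, 11.6 and 40.8 TPM for nociceptor 1 to 4. It lay at 19.3, 29.8 and 28.5 TPM for mechanoreceptor 1 to 3 and at 5.64, 27.0 and 28.5 TPM for proprioceptor 1 to 3. Nociceptor 4 was the highest of all and the other 3 nociceptor libraries lay below every mechanoreceptor library. The nociceptor mean was 16.6 ± 16.3 TPM (SD, n = 4), or 8.52 ± 2.67 TPM (SD, n = 3) without nociceptor 4. The edgeR difference between the mechanoreceptor and nociceptor protocols was 0.54 ± 0.61 (log2, SE), and 1.47 without nociceptor 4. A single protein-coding entry, ASIC1-202, held between 84.1% and 98.1% of the ASIC1 TPM in every library, so ASIC1 showed no change of main transcript.

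ASIC3, the acid sensor of muscle and skin afferents, and ASIC4, which forms no acid-gated current on its own, were low. ASIC3 received between 2 and 41 counts a library and lay at 0.0606 to 2.32 TPM for nociceptor 1 to 4, both the lowest and the highest of all. Its range was 0.799 to 1.40 TPM in the mechanoreceptor and 1.12 to 1.32 TPM in the proprioceptor protocol. ASIC4 received between 9 and 117 counts, with 1.73 TPM in mechanoreceptor 3 and 2.20 TPM in proprioceptor 2, and between 0.157 and 0.625 TPM in the other 8. These 2 libraries are the mesenchyme-rich ones outside the nociceptor protocol. Of the summed ASIC level, ASIC1 held a median of 50.3% and ASIC2 44.5%, and ASIC3 and ASIC4 held 2.85% and 1.41%.

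TMEM63B and TMEM63C, the 2 relatives of TMEM63A, did not follow it. TMEM63B was measured at 8.06, 6.19, 12.8 and 17.0 TPM for nociceptor 1 to 4, at 11.7, 18.7 and 23.3 TPM for mechanoreceptor 1 to 3 and at 2.06, 23.3 and 18.7 TPM for proprioceptor 1 to 3. TMEM63C was measured at 2.75, 2.37, 3.81 and 10.9 TPM, at 11.2, 11.0 and 7.92 TPM and at 1.93, 8.01 and 14.8 TPM in the same order. For both, proprioceptor 1 was the lowest library and the ranges of the protocols overlapped. For TMEM63C the nociceptor mean was 4.95 ± 4.00 TPM (SD, n = 4), or 2.98 ± 0.744 TPM (SD, n = 3) without nociceptor 4, against 10.1 ± 1.85 TPM (SD, n = 3) in the mechanoreceptor protocol. The edgeR difference for TMEM63C was 1.05 ± 0.65 (log2, SE; adjusted p 0.638), and 1.78 without nociceptor 4. TMEM63B held between 43.0% and 65.7% of the summed TMEM63 level, and TMEM63A between 0.511% and 40.6%.

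No member passed the adjusted threshold of 0.05 by edgeR in any comparison, and neither did any other gene: 0.00% of the 16130 genes tested were called in each. At an unadjusted p under 0.05, 1 of the 9 members tested (ASIC2) stood out between the mechanoreceptor and nociceptor protocols, against 8.18% of all genes. Between the proprioceptor and nociceptor protocols it was 0 of 9 against 6.19% of all genes, and between the proprioceptor and mechanoreceptor protocols 1 of 9 (ASIC2) against 1.49%. In an F test over the 3 protocols ASIC2 had an unadjusted p of 0.0197 and an adjusted p of 0.813 by edgeR, and 5.73% of genes had an unadjusted p under 0.05. The comparisons share libraries, so ASIC2's 2 differences both rest on the mechanoreceptor libraries. DESeq2 called 130, 31 and 0 genes in the 3 pairs and 0 members. A fit that weights each library by its fit to the others (limma voom with library weights) did call 6 of 9 members between the mechanoreceptor and nociceptor protocols, with PIEZO2, TMEM63C, ASIC1 and ASIC2 higher by 1.85, 1.84, 1.41 and 1.29 and PIEZO1 and TMEM63A at -2.59 and -4.82 (log2), where it called 27.0% of all genes. It called 0 members in the other 2 pairs. In the first pair its weights were highest for nociceptor 2 (3.77) and mechanoreceptor 2 (3.22). They were lowest for nociceptor 1 (0.384) and nociceptor 4 (0.412), so these calls rest unevenly on the libraries. For PIEZO1 and TMEM63A the mechanoreceptor against nociceptor differences were -1.19 ± 1.27 and -1.91 ± 1.37 (log2, SE), with adjusted p of 0.781 and 0.673 by edgeR, so a several-fold difference in either direction could not have been told from the spread of these libraries.

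**Figure D5:**
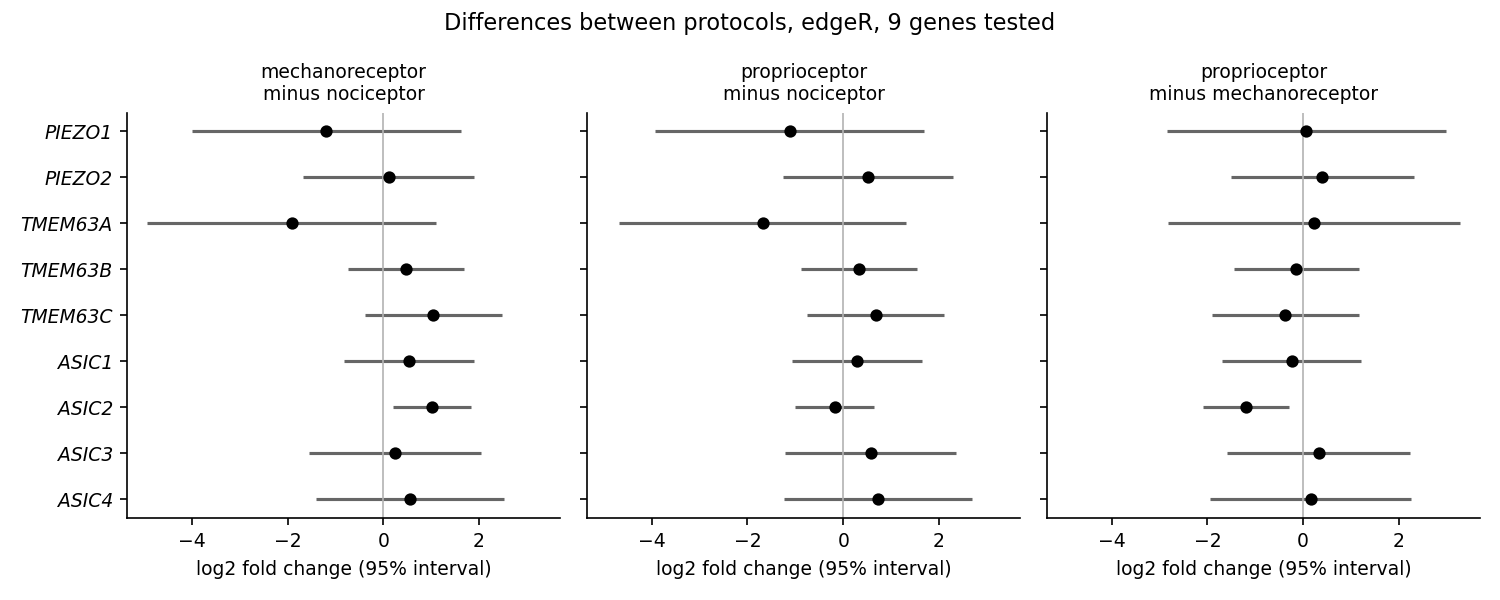
edgeR log2 fold change (x axis) with its 95% interval for the 9 members tested (y axis), 1 panel for each pair of protocols, as first-named minus second. All intervals cross 0 except those of ASIC2 in the 2 pairs with the mechanoreceptor protocol, and the widest belong to PIEZO1 and TMEM63A.

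Without nociceptor 4, the members with an unadjusted p under 0.05 by edgeR were PIEZO2, TMEM63C, ASIC1 and ASIC2 between the mechanoreceptor and nociceptor protocols (16.1% of all genes) and PIEZO2, TMEM63C, ASIC1 and ASIC3 between the proprioceptor and nociceptor protocols (15.3% of all genes). All were higher outside the nociceptor protocol, and 0 passed adjustment. Without mechanoreceptor 3 the ASIC2 difference from the nociceptor protocol no longer had an unadjusted p under 0.05, and TMEM63A did. Without nociceptor 2, too, ASIC2 lost it. Without proprioceptor 2, PIEZO1 and TMEM63A had an unadjusted p under 0.05 between the proprioceptor and nociceptor protocols. The share of all genes under 0.05 without mechanoreceptor 3 or proprioceptor 2 is not given here. These members can therefore not be told from a general shift.

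The genes whose level followed PIEZO2 most closely over the 10 libraries, by Pearson's r of log2(TPM + 1), were ZSCAN9 and ERVFRD-1 (both 0.95), ARHGAP25 (0.94), COL25A1 (0.93) and CHODL (0.92). CHODL, which codes for the membrane lectin chondrolectin, lay at 223 TPM in nociceptor 4 and 127 TPM in proprioceptor 3, the 2 libraries highest for PIEZO2. The nearest genes were SHISA9 and HLA-U to PIEZO1, CDC42EP5 and IGFBP4 to TMEM63A, RNF40 and FAM193A to TMEM63B, NMNAT2 and MAPK8IP2 to TMEM63C, ATP6V0C and TMEM121B to ASIC1, PAK1 (0.95) and DLL4 (0.94) to ASIC2, and SAXO5 and SMTNL1 to ASIC3. These are the highest of 16130 genes and the libraries share depth and make-up, so they describe these libraries only.

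Of the 11 listed partners and modulators of PIEZO channels, 10 were tested and 0 passed the threshold in any comparison. Between the mechanoreceptor and nociceptor protocols 4 were higher and 6 lower, with a median of -0.51 (log2) against 0.00 over all genes, and 1 (MDFI) had an unadjusted p under 0.05. The most abundant were ANXA6, a calcium-dependent membrane-binding protein, at 76.2 to 252 TPM, CDH2, an adhesion cadherin, at 16.2 to 162 TPM, and MTMR2, a lipid phosphatase, at 33.0 to 148 TPM. MDFIC, an auxiliary subunit of PIEZO channels named here after its values were seen, lay between 2.88 and 9.38 TPM in the 5 mesenchyme-rich libraries and at most at 0.746 TPM in the others, the same division as PIEZO1.

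Of the 9 partners of ASIC channels, 8 were tested and 0 passed. Between the mechanoreceptor and nociceptor protocols 6 were higher and 2 lower, with a median of 0.56. S100A10, which carries channels to the membrane, was very abundant, at 1545 to 3246 TPM, and LIN7B, a scaffold protein, lay between 43.9 and 259 TPM. The other degenerin and epithelial sodium channels were near the limit, with SCNN1D at most at 1.10 TPM, SCNN1A at 1.77 TPM and SCNN1G at 0.739 TPM, below the lowest ASIC1 and ASIC2 values.

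Many other mechanically linked channels were looked at, and for TMC3 the nociceptor libraries lay apart from those of both other protocols. Of the 8 TMC genes, the family of the hair cell transduction channel, 7 were tested and 0 passed, with 1 higher and 6 lower between the mechanoreceptor and nociceptor protocols. The higher one, TMC3, lay between 1.09 and 1.70 TPM for nociceptor 1 to 4, between 3.31 and 4.82 TPM for mechanoreceptor 1 to 3 and between 2.34 and 3.81 TPM for proprioceptor 1 to 3. Every mechanoreceptor and every proprioceptor library lay above every nociceptor library, as for 8.05% and 1.49% of all genes tested in the 2 comparisons. The share of genes for which both held is not given here, so TMC3 is not set apart from other genes by it. MDFI of the PIEZO partners also did not overlap in either comparison, with the nociceptor libraries higher (mean 0.978 TPM against 0.115 and 0.203 TPM). By edgeR, TMC3 was 1.52 ± 0.33 and 1.35 ± 0.33 (log2, SE) above the nociceptor protocol in the mechanoreceptor and proprioceptor protocols, with adjusted p of 0.598 and 0.665. TMC6 and TMC7, the other most abundant members, lay between 0.671 and 18.2 TPM and between 1.61 and 5.33 TPM.

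The 3 potassium channels opened by stretch were all tested and 0 passed. KCNK10 and KCNK4 lay between 5.50 and 24.7 TPM and between 3.91 and 23.9 TPM respectively, and KCNK2 between 0.282 and 6.95 TPM. The 3 lowest libraries for KCNK10 and for KCNK4 were nociceptor 1, 2 and 3, while nociceptor 4 reached 21.3 and 23.9 TPM. Of the 10 TRP and polycystin channels, all were tested and 0 passed, with 4 higher and 6 lower in the mechanoreceptor than in the nociceptor protocol. TRPV2, a growth-factor-responsive cation channel, was steady at 50.4 to 126 TPM, PKD1 lay between 2.68 and 33.7 TPM, and TRPA1, the irritant channel of nociceptors, ran from 0.276 TPM in proprioceptor 3 to 81.7 TPM in nociceptor 1. Of the 8 other proposed mechanosensors, all were tested and 0 passed. ITGB1, the shared beta chain of most matrix-binding integrins, lay between 70.2 and 1275 TPM, TMEM120A between 73.9 and 201 TPM and TMEM87A between 29.1 and 212 TPM.

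The marker lists showed 0 genes past the threshold in any comparison. Of the 12 pan-neuronal markers, 11 were higher in the mechanoreceptor and 12 in the proprioceptor than in the nociceptor protocol, with medians of 0.46 and 0.93 (log2). Between the mechanoreceptor and nociceptor protocols all 11 tested mesenchyme markers, all 8 glia markers and all 6 proliferation markers were lower, with medians of -1.90, -2.29 and -3.74 (log2) against 0.00 over all genes. COL1A2 and COL1A1, the chains of type I collagen, lay between 575 and 1510 TPM and between 366 and 1984 TPM in the 5 mesenchyme-rich libraries and at most at 119 and 17.0 TPM in the others. S100B, a calcium-binding protein of glia, lay at most at 238 TPM outside the mesenchyme-rich libraries and at least at 958 TPM in them. CDK1 and TOP2A ran from 0.135 to 69.4 TPM and from 0.178 to 19.0 TPM. Of the markers of other cell types, PECAM1 and VWF of endothelium reached at most 0.521 and 0.103 TPM, and ACTA1 and MYH3 of skeletal muscle at most 0.725 and 0.979 TPM. EPCAM and KRT18, shared by epithelia and Merkel cells, lay between 13.1 and 53.0 TPM and between 8.72 and 79.8 TPM. KRT20 and ATOH1, from the same list and picked after their values were seen, reached at most 0.258 and 0.0897 TPM. ATOH1 is the transcription factor that specifies Merkel cells.

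Markers of the neuron subtypes lay on both sides of 0 between protocols, with 0 past the threshold. Of the 8 low-threshold mechanoreceptor markers 4 were higher and 4 lower in the mechanoreceptor than in the nociceptor protocol, with GFRA2 between 15.6 and 387 TPM and RET between 23.8 and 98.0 TPM. Of the 6 proprioceptor markers 3 were higher and 3 lower in the proprioceptor than in the nociceptor protocol, with ETV1 between 34.4 and 251 TPM and SPP1 between 3.16 and 262 TPM. Of the 7 nociceptor markers tested 5 were higher and 2 lower in the mechanoreceptor than in the nociceptor protocol, with TAC1 between 39.8 and 1693 TPM and P2RX3 between 54.2 and 486 TPM.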

How the data were processed

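Bulk RNA-seq of 10 libraries was analysed. Per the labels, RNA was extracted with Trizol, cDNA was made with a poly(A)-primed low-input kit that keeps no strand and libraries with NexteraXT, and both ends were sequenced for 75 nt. Quantification used kallisto 0.50.1 and GRCh38.p14, per the submitters' processing notes. Estimated counts (whole numbers) and TPM, for genes and for transcripts, were deposited by the authors. The series text names 10x Genomics, whereas the tables hold 1 column a library.

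A gene row with a blank name was left out (0.733% to 1.66% of counts). Counts were tested with edgeR 4.0.16 in R 4.3.3 (filterByExpr, TMM, quasi-likelihood, all 10 libraries, 1 mean a protocol, Benjamini-Hochberg over 16130 genes or 76818 transcripts, threshold 0.05). The common biological coefficient of variation was 0.550 for genes and 1.04 for transcripts. Between 27891186 and 44541262 counts a library leave counting error small except for STOML3, ASIC3 and ASIC4. It was not small either in the lowest libraries of TMEM63A (from 11 counts) and PIEZO1 (from 36 counts). In data simulated for the mechanoreceptor against nociceptor comparison over 15928 genes, at a coefficient of 0.3, which is below the measured one, 93 of 100 genes changed 4-fold and 25 of 94 changed 2-fold were recovered. Log2 ratios were tested by exact permutation over libraries. DESeq2 1.42.0 and limma 3.58.1 were alternatives. No 2 libraries of a protocol were copies (lowest chi-square per degree of freedom 123).

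The members and the 19 gene lists were chosen with earlier results of these data known. Besides the members, of each list the genes past the threshold were named, or, where fewer than 2 passed, those highest in mean TPM (3 for channel and partner lists, 2 for marker lists). One gene that this rule named is not reported here. PIEZO2 transcripts with at least 5% of the gene's TPM in any library and ASIC1 and ASIC2 transcripts with at least 10% on average were named, and the genes most like each member by Pearson's r (5 for PIEZO2, 2 for others). The search for the ASIC2 exon, the order by mesenchyme markers and the 250-base windows were added after the data were seen. Transcript names and exons came from GENCODE v29, gene and promoter coordinates from RefSeq. Of the 10 members, 9 had a promoter window.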

Additional observations from a re-analysis of the deposited data

Results flagged for a closer look

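In the nociceptor protocol, 11 quantities (the TPM of the 10 genes and the ratio of PIEZO2 to PIEZO1) were checked for a library far from the other 3, and 3 had one, in each case nociceptor 4 as the highest. PIEZO2 was measured at 341 TPM there against 21.1 to 48.6 TPM in the others. ASIC1 was measured at 40.8 TPM against 6.57 to 11.6 TPM. TMEM63C was measured at 10.9 TPM against 2.37 to 3.81 TPM. Chance alone marks about 1 in 20 such groups if values are normally distributed, which was not checked for these raw TPM. The 3 flags rest on the same library and are not independent. The PIEZO ratio, the only quantity checked on a log scale, was not flagged. The same library had a mesenchyme marker level of 2.09 log2 CPM against 5.05 to 5.10 in the other 3, a glia marker level of 4.25 against 6.60 to 7.21, and a share of mitochondrially encoded counts of 6.36%. Whether these values bear on the channel genes was not tested.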

How the results depend on the processing

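By edgeR, DESeq2 and limma on log2(TPM), without a filter, with a mesenchyme covariate, with only the 2 protocols compared, and without each library in turn, 0 members were called in every comparison. Only limma voom with library weights called any: 6 between the mechanoreceptor and nociceptor protocols and 5 in the test over all 3 protocols. All genes called rose from 0 to 130, 31 and 79 by DESeq2 (mechanoreceptor against nociceptor, proprioceptor against nociceptor, all 3 protocols) and to 4362 and 2797 by voom (first and last of these). PIEZO2 transcripts called stayed at 0 in every setting run. The cause of these differences was not tested.

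Same-numbered libraries did not deviate together throughout (correlations between -0.633 and 0.49). With few libraries a protocol that also differ in make-up, this cannot tell whether same-numbered libraries were handled together. With the replicate block, 0 members were called in each comparison and the proprioceptor against mechanoreceptor difference of PIEZO1 was -0.15. Nociceptor 4 is the only library with its replicate number, so the block removes it from every difference. The block is therefore not separate from leaving out nociceptor 4. In that edgeR fit PIEZO2, TMEM63C, ASIC1 and ASIC2 had an unadjusted p under 0.05 between the mechanoreceptor and nociceptor protocols (2392 of 16130 genes). Between the proprioceptor and nociceptor protocols PIEZO2, ASIC1 and ASIC3 did (1974 genes), and in the last pair ASIC2 (221 genes). With the block as an exact sign-flip test, which also leaves out nociceptor 4, the 3 PIEZO ratio differences kept their direction.

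Of the 216 member fold changes under other settings, 15 reversed. With the mesenchyme covariate, PIEZO1, PIEZO2 and ASIC3 became 1.43, -0.72 and -0.28 (mechanoreceptor against nociceptor), PIEZO1 and PIEZO2 0.46 and -0.12 (proprioceptor against nociceptor), and PIEZO1 and ASIC4 -0.97 and -0.068 (proprioceptor against mechanoreceptor). With voom, ASIC4 became -0.39 in the first pair, and PIEZO1 and TMEM63B -0.22 and 0.052 in the last. With log2(TPM + 0.1), TMEM63B became -0.072 (proprioceptor against nociceptor), and PIEZO1 and ASIC4 -0.61 and -0.061 in the last pair. With log2(TPM + 1), PIEZO1 became -0.34 in the last pair.

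Leaving out libraries, the following crossed 0. Between the mechanoreceptor and nociceptor protocols PIEZO2 ran from -0.20 to 1.70, ASIC3 from -0.12 to 1.36 and ASIC4 from -0.86 to 0.93. Between the proprioceptor and nociceptor protocols TMEM63C ran from -0.055 to 1.41, ASIC1 from -0.015 to 1.23, ASIC2 from -0.57 to 0.11 and ASIC4 from -1.10 to 1.15. Between the proprioceptor and mechanoreceptor protocols PIEZO1 ran from -3.02 to 1.99, TMEM63A from -2.24 to 3.74, TMEM63B from -0.43 to 0.30, TMEM63C from -1.05 to 0.077, ASIC1 from -0.49 to 0.074 and ASIC4 from -1.62 to 1.57, and the PIEZO log2 ratio from -0.12 to 2.51. Only the last comparison of the ratio reversed. STOML3 was at the limit of its counts, and ASIC3 (2 to 41 counts) and ASIC4 (9 to 117) had few counts and also varied between libraries. TMEM63A (from 11 counts) and PIEZO1 (from 36) had few counts in their lowest libraries.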
